A study of Rattus norvegicus with 82 samples.

Results

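Rat genes whose symbols begin with Slc1a, Slc3a, Slc6a, Slc7a, Slc36a, Slc38a or Slc43a, the families that carry most amino acids across cell membranes, were described in 7 brain regions of ADX, pADX and Sham rats. Probe sets were chosen by the gene symbol in the platform annotation, Slc1a2, Slc1a3, Slc6a2 and Slc6a4 were left out, and the probe set with the highest mean signal stood for each gene. This gave 49 genes of 14217 with a single symbol on the array, from 65 probe sets. Of these, 15 belonged to Slc7a, 14 to Slc6a, 9 to Slc38a, 4 to Slc1a, 3 to Slc36a, 2 to Slc3a and 2 to Slc43a. The symbol rule also took in Slc6a3, the dopamine transporter, Slc6a8, the creatine transporter, and Slc7a6os, a gene that lies opposite Slc7a6 and is not a transporter.

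Amino acids cannot cross a lipid membrane unaided. Sodium-coupled carriers of the Slc1, Slc6 and Slc38 families move glutamate, glycine, GABA, taurine, proline and neutral amino acids into neurons and glia, while many Slc7 proteins are light chains that need the heavy chain Slc3a2 or Slc3a1 to reach the cell surface and then exchange one amino acid for another. In the brain these carriers end transmission by glycine and GABA, pass glutamine between glia and neurons, bring in cystine for glutathione synthesis and set the supply of large neutral and cationic amino acids. Adrenal steroids are known to act on amino acid metabolism in many tissues.

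The study hybridised total RNA from rat brain to 82 arrays, of which 80 carried a treatment label: ADX, pADX or Sham, with the time of day as PM or AM. ADX is the usual abbreviation of adrenalectomy and Sham of the control operation. The sources used here do not give the meaning of the p in pADX, the strain or the age. Whether an array held RNA of 1 animal or a pool, and whether an animal gave several regions, is not given either. The p-values therefore measure the spread between arrays, or between the units described below, and this spread may be technical. The tests among regions treat the arrays as independent. The amygdala, hypothalamus, septum, locus coeruleus and dorsal raphe each had 12 arrays, 2 for every treatment and time. The frontal cortex had 10 arrays with a treatment, with a single array each for ADX AM and Sham AM, and the hippocampus had 10, of which both pADX arrays were labelled PM. The position of those 2 arrays in the series puts their label in doubt.

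Signals are log2 intensities after quantile normalization, with a floor of 16 (4 on the log2 scale), and 27.5% of all values lay at that floor. In the deposited values 45 arrays shared a common scale (mean after trimming 2% at each end, 150.04 to 150.05) and the remaining 37 had means of 34.1 to 171. The amygdala, septum and frontal cortex arrays all shared that scale, and no hypothalamic or hippocampal array did. It was shared by 0 of 4 ADX, 3 of 4 pADX and 4 of 4 Sham arrays from the locus coeruleus, and by 0 of 4 ADX, 0 of 4 pADX and 2 of 4 Sham arrays from the dorsal raphe, both of them PM. Array titles, which gave the region, disagreed with the source name for 4 regions. By the titles the noradrenaline enzyme gene Dbh averaged 8.34 in the locus coeruleus and at most 4.20 elsewhere, the serotonin neuron factor gene Fev averaged 6.86 in the dorsal raphe and 5.85 in the locus coeruleus, and the hypothalamic hormone gene Avp averaged 11.2 in the hypothalamus.

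Of the 49 transporter genes, 26 were above the floor on all 80 arrays and 32 were at the floor on at most 1 in 4. Another 7 were at the floor on between 1 and 3 in 4 arrays, and 10 on more. The 10 were Slc36a1, Slc36a2, Slc36a3, Slc6a5, Slc6a14, Slc6a18, Slc6a20b, Slc7a2, Slc7a9 and Slc7a13, among them the glycine transporter Slc6a5 at the floor on every array. No level, and so no regional order, can be given for these 10.

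Region separated the transporter genes far more than treatment or time did. Over the 32 genes that were mostly above the floor, the median share of variance between regions was 62.7% (8.4% to 95.5%), against 4.38% between the 6 combinations of treatment and time. Of the 49 genes, 30 differed among regions in limma's moderated F test at an adjusted p under 0.05, with 65.2% of all 31042 probe sets tested doing so. Among features mostly above the floor the shares were 25 of 32 transporter genes (78.1%) and 87% of 20554 probe sets, so the transporters were not more regional than the array as a whole. The genes that differed were 4 of 4 in Slc1a, 10 of 14 in Slc6a, 9 of 15 in Slc7a, 5 of 9 in Slc38a, 1 of 2 in Slc3a, 1 of 2 in Slc43a and 0 of 3 in Slc36a.

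**Figure D1:**
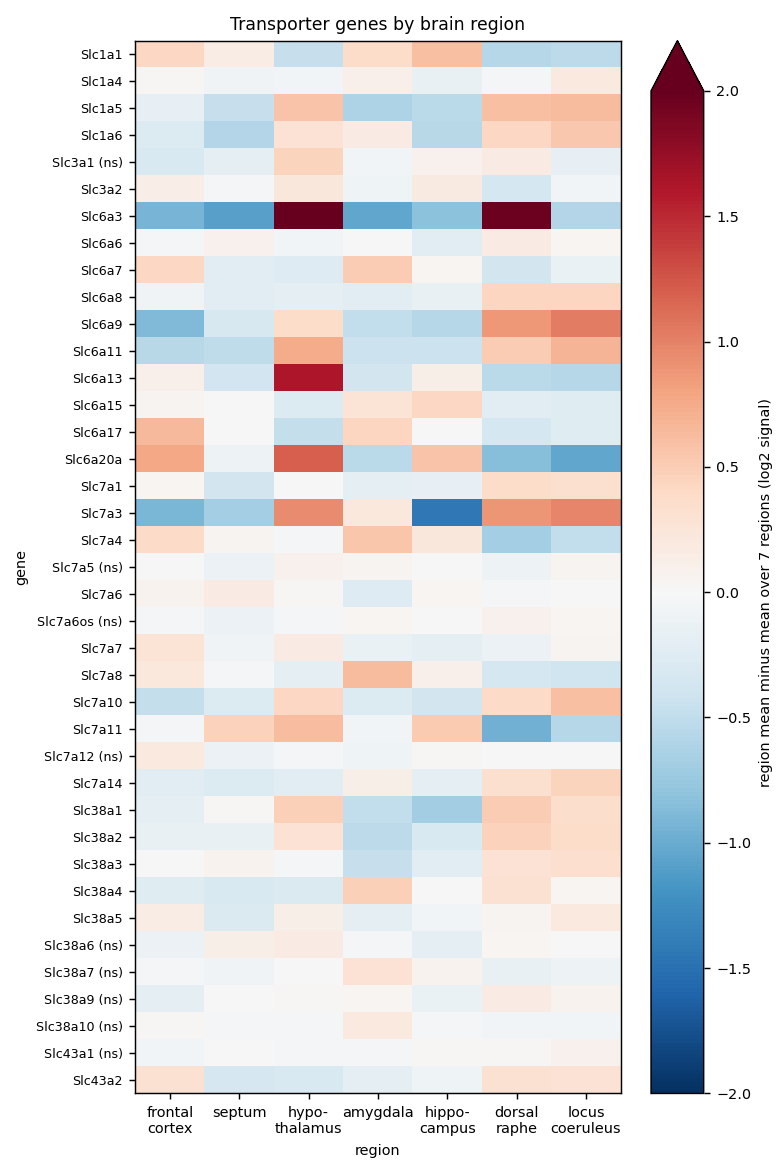
Regional profiles of the 39 transporter genes at the floor on at most 3 in 4 arrays: rows are genes in family order, columns are regions, and the colour gives the region mean minus the mean over 7 regions in log2 signal, with the scale ending at 2 (Slc6a3 lies above it in the hypothalamus). Genes marked ns did not pass the F test among regions. Slc6a9, Slc7a3, Slc7a10, Slc38a1 and Slc38a2 are red in the dorsal raphe, locus coeruleus and hypothalamus, and Slc1a1, Slc6a15 and Slc6a17 are blue there.

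The first set of profiles was high in the dorsal raphe and locus coeruleus, usually with the hypothalamus. Slc6a9 encodes the glycine transporter GlyT1, which clears glycine around synapses. Its log2 signal ran from 9.20 to 9.73 in the locus coeruleus (median 9.34), from 8.92 to 9.44 in the dorsal raphe (9.20) and from 8.44 to 8.91 in the hypothalamus (8.72). The other 4 regions reached from 7.09 to 8.29 together. All 36 arrays of the brainstem nuclei and hypothalamus were thus above all 44 arrays of the frontal cortex, septum, amygdala and hippocampus. The locus coeruleus mean of 9.36 ± 0.15 was 1.91 log2 units (3.75-fold) above the frontal cortex mean of 7.45 ± 0.28 (SD, n = 12 and 10, F test adjusted p = 1.87e-36 over the 7 regions). Its other 2 probe sets also had their lowest mean in the frontal cortex, but their highest in the dorsal raphe and in the hypothalamus.

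Slc7a3, the cationic amino acid transporter CAT-3 that takes up arginine and lysine in neurons, had the largest F value of the 49 genes. Its signal ran from 7.94 to 8.61 in the locus coeruleus (median 8.36), from 8.10 to 8.51 in the hypothalamus (8.30) and from 7.95 to 8.52 in the dorsal raphe (8.26). These 3 regions overlapped throughout. The amygdala followed at 7.25 to 8.03 (7.62), then the septum at 6.27 to 7.06 (6.68), the frontal cortex at 6.08 to 6.80 (6.42) and the hippocampus at 5.58 to 6.34 (5.95). The septum and frontal cortex overlapped, and the locus coeruleus mean of 8.33 ± 0.22 (SD, n = 12) was 5.27-fold the hippocampal mean of 5.93 ± 0.22 (SD, n = 10, F test adjusted p = 2.34e-43).

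Slc7a10, the light chain asc-1 that exchanges glycine and D-serine, had a profile across the 7 region means that was closest to that of Slc6a9 (r = 0.973 over 7 regions that share their arrays, a description only). Its locus coeruleus mean was 7.55 ± 0.19, against 6.46 ± 0.25 in the frontal cortex (SD, n = 12 and 10, 2.12-fold, F test adjusted p = 1.15e-20). The single arrays ran from 7.15 to 7.76 in the locus coeruleus and from 6.07 to 6.71 in the frontal cortex, without overlap.

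Both sodium-coupled neutral amino acid carriers that supply glutamine to neurons and other cells, Slc38a1 and Slc38a2, were also highest in these 3 regions, with the dorsal raphe first and the lowest mean in the hippocampus for Slc38a1 and in the amygdala for Slc38a2. Slc38a1 ran from 9.59 to 10.09 in the dorsal raphe (median 9.87), from 9.74 to 10.01 in the hypothalamus (9.82) and from 9.50 to 9.88 in the locus coeruleus (9.76). Its lowest regions were the amygdala, from 8.70 to 9.04 (8.91), and the hippocampus, from 8.42 to 8.88 (8.67). The dorsal raphe mean was 1.21 log2 units (2.31-fold) above the hippocampal mean (F test adjusted p = 9.46e-40), and no array of the 3 high regions fell into the range of the amygdala or hippocampus. The other Slc38a1 probe sets had their highest mean in the locus coeruleus and their lowest in the amygdala. The dimmer of them was at the floor on 23 of 80 arrays. Slc38a2 averaged 9.86 ± 0.25 in the dorsal raphe and 8.87 ± 0.18 in the amygdala (SD, n = 12 each, 1.97-fold, F test adjusted p = 8.19e-24). The glutamate transporter EAAT4 gene Slc1a6, the neutral amino acid exchanger gene Slc1a5, the GABA transporter GAT-3 gene Slc6a11, the creatine transporter gene Slc6a8, the arginine transporter gene Slc7a1 and the lysosomal carrier gene Slc7a14 were also higher in both brainstem nuclei than in the mean of the other regions. Slc7a14 averaged 9.43 in the locus coeruleus and 8.71 in the septum (1.64-fold, F test adjusted p = 2.09e-13). Slc6a11 was at the floor on 9 of 10 frontal cortex arrays and 9 of 12 septal arrays and on none in the hypothalamus and locus coeruleus, where it ran from 4.84 to 5.69 and from 4.79 to 5.67.

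**Figure D2:**
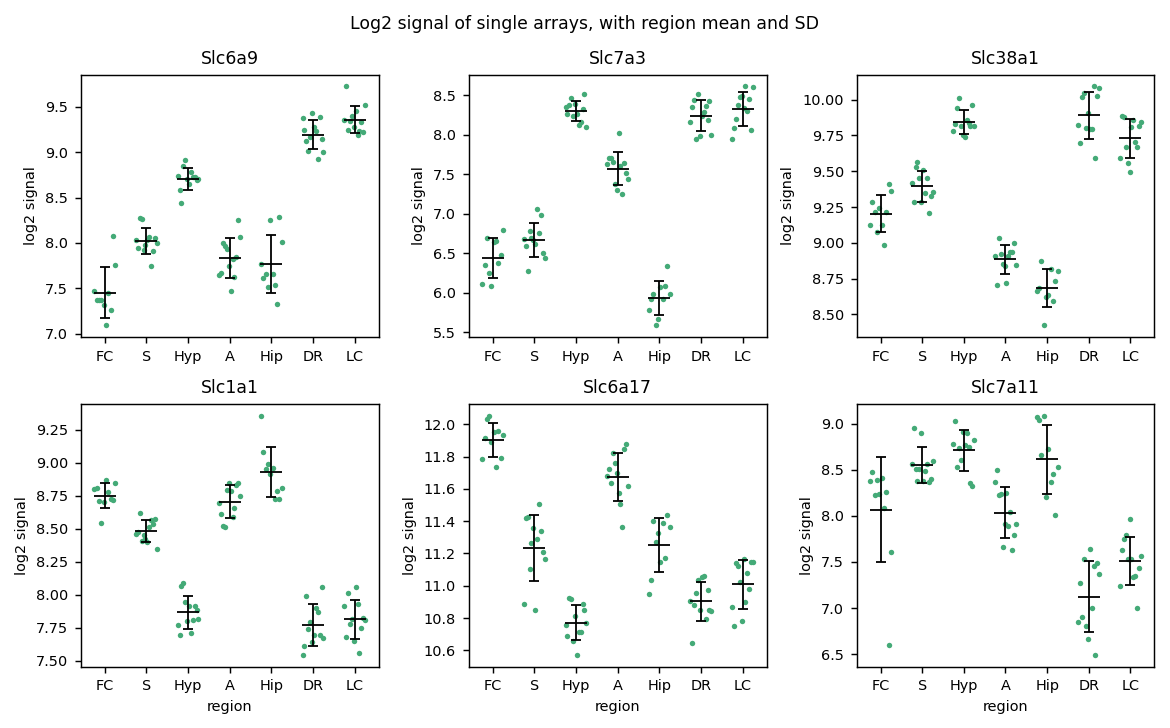
Log2 signal (vertical axes, which do not start at 0) of 6 transporter genes on each array of 7 regions (FC frontal cortex, S septum, Hyp hypothalamus, A amygdala, Hip hippocampus, DR dorsal raphe, LC locus coeruleus), with points for single arrays and black marks for the region mean and SD. Slc6a9, Slc7a3 and Slc38a1 are high in the hypothalamus, dorsal raphe and locus coeruleus, Slc1a1 and Slc6a17 are low there, and Slc7a11 is low in the dorsal raphe and locus coeruleus only.

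The second set of profiles was the reverse, with the highest signals in the frontal cortex, amygdala or hippocampus. Slc1a1 encodes the neuronal glutamate and cysteine transporter EAAC1. Its signal ran from 8.72 to 9.36 in the hippocampus (median 8.93), from 8.54 to 8.87 in the frontal cortex (8.75), from 8.52 to 8.85 in the amygdala (8.72) and from 8.35 to 8.62 in the septum (8.47). In the hypothalamus, dorsal raphe and locus coeruleus together it ran from 7.55 to 8.09. All 36 arrays of these 3 regions lay below all 44 arrays of the other 4. The hippocampal mean of 8.93 ± 0.19 was 2.24-fold the dorsal raphe mean of 7.77 ± 0.16 (SD, n = 10 and 12, F test adjusted p = 6.21e-36), and its second probe set also peaked in the hippocampus.

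Slc6a17, a vesicular carrier of neutral amino acids in neurons, ran from 11.74 to 12.05 in the frontal cortex, from 11.36 to 11.88 in the amygdala and from 10.57 to 10.92 in the hypothalamus. The frontal cortex mean was 2.19-fold the hypothalamic mean (F test adjusted p = 7.65e-31), without overlap between those regions. Of its other 4 probe sets, 3 passed the F test and had the highest mean in the frontal cortex, and 1 was at the floor on 79 arrays. Slc6a15, a neuronal carrier of branched-chain amino acids and proline, averaged 9.49 in the hippocampus and 8.80 in the hypothalamus (1.61-fold, F test adjusted p = 1.91e-18). Slc6a7, the brain proline transporter, averaged 7.22 in the amygdala and 6.34 in the dorsal raphe (1.84-fold, F test adjusted p = 1.72e-14). Slc7a4 and Slc7a8 were likewise highest in the amygdala.

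Slc7a11, the cystine-glutamate exchanger xCT, had an order of its own. It ran from 8.32 to 9.03 in the hypothalamus (median 8.76), from 8.01 to 9.09 in the hippocampus (8.6) and from 8.37 to 8.95 in the septum (8.51). The dorsal raphe ranged from 6.49 to 7.65 (7.14) and the locus coeruleus from 7.0 to 7.97 (7.53). The hypothalamus and septum did not overlap with either brainstem nucleus, and the hypothalamic mean of 8.71 ± 0.22 was 3-fold the dorsal raphe mean of 7.12 ± 0.38 (SD, n = 12 each, F test adjusted p = 9.02e-21). Its heavy chain partner Slc3a2 also had its highest mean in the hypothalamus (9.21) and its lowest in the dorsal raphe (8.63, F test adjusted p = 4.64e-13). Slc7a5, the large neutral amino acid transporter LAT1 that pairs with the same heavy chain, did not pass the F test (highest mean 7.02 in the hypothalamus, lowest 6.82 in the septum, adjusted p = 0.418).

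4 genes of the Slc6 family that differed among regions had their highest mean in the hypothalamus: Slc6a11, described above, and Slc6a13, Slc6a20a and Slc6a3. Slc6a13, the GABA and taurine transporter GAT-2, was the sole transporter gene that exceeded every other region by 1 log2 unit, which 0.734% of all probe sets did in some region. It ran from 4.94 to 7.32 in the hypothalamus (median 6.36), against at most 5.69 in any other region, and its hypothalamic mean was 1.5 log2 units above the hippocampal mean that came next (F test adjusted p = 5.85e-21). Slc6a20a, a carrier of proline and other imino acids, ran from 6.48 to 8.64 in the hypothalamus (median 7.98), from 7.13 to 7.70 in the frontal cortex (7.37) and from 5.03 to 6.18 in the locus coeruleus (5.63). Its hypothalamic mean of 7.84 ± 0.60 was 4.68-fold the locus coeruleus mean of 5.61 ± 0.35 (SD, n = 12 each, F test adjusted p = 2.12e-29). The summed signal of 6 meningeal and fibroblast markers moved with both: its median was 2000 in the hypothalamus, 981 in the hippocampus, 865 in the frontal cortex, 689 in the amygdala, 657 in the septum, 430 in the locus coeruleus and 390 in the dorsal raphe, with all 6 markers measured. Within the hypothalamus the 2 ADX AM arrays were lowest for Slc6a20a (6.48 and 6.97), for Slc6a13 (4.94 and 5.59) and for the marker sum (1010 and 1300). The other 10 hypothalamic arrays had Slc6a20a from 7.61 to 8.64 and sums from 1400 to 2850. The sums of 5 pericyte and smooth muscle markers and of 3 blood markers also had their highest medians in the hypothalamus (461 and 3830). In the other regions the medians ran from 289 to 322 for pericyte and smooth muscle markers and from 1510 to 2640 for blood markers. The part of meningeal tissue, pericytes, smooth muscle or blood in these signals was not tested. In tissue RNA fewer cells of a type and less RNA per cell cannot be told apart.

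Slc6a3, the dopamine transporter of dopamine neurons, ran from 6.67 to 8.86 in the hypothalamus (median 7.60) and from 6.45 to 8.41 in the dorsal raphe (7.03). In the other 5 regions it did not exceed 5.23 and was at the floor on 26 of 56 arrays. The locus coeruleus, at 4 to 5.23, was thus unlike the dorsal raphe. The hypothalamic mean was at least 12-fold the septal mean, a lower bound because 9 of 12 septal arrays were at the floor (F test adjusted p = 2.67e-35). Th, the enzyme gene that dopamine and noradrenaline neurons share, averaged 8.77 in the hypothalamus, 8.54 in the dorsal raphe and 8.74 in the locus coeruleus, and from 4.30 to 4.96 in the other regions.

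Set against the mean of the other 6 regions, the dorsal raphe had 16 transporter genes higher and 10 lower (all probe sets, 20.5% and 17.5%) and the locus coeruleus 15 higher and 9 lower (21.7% and 18.4%). The hypothalamus had 14 higher and 8 lower (19.2% and 16.1%) and the frontal cortex 11 higher and 10 lower (20.9% and 21.3%). The 11 include Slc6a18 and Slc7a13, which were at the floor on 9 of the 10 frontal cortex arrays and for which no regional order can be given. Lower calls outnumbered higher ones in the amygdala with 9 higher and 14 lower (15.7% and 17.7%), in the hippocampus with 5 and 13 (16.5% and 17.8%) and in the septum with 2 and 17 (15.3% and 15.9%). These splits depended on the scaling. With the deposited values, which moved the median of all probe sets by 0.26 in the septum, 0.19 in the amygdala, 0.10 in the frontal cortex, −0.37 in the hippocampus and −0.21 in the hypothalamus, the septum had 20 higher and 5 lower, the amygdala 20 and 6, the frontal cortex 23 and 5, the hippocampus 1 and 29, the hypothalamus 6 and 19, and the dorsal raphe 9 and 11. The locus coeruleus kept its direction with 15 higher and 7 lower, and the frontal cortex and hippocampus kept theirs with wider splits. With each array scaled to a common median the 7 splits lay within 3 genes of those given first.

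The 7 genes that were mostly above the floor and did not pass the F test were Slc3a1, Slc7a5, Slc7a6os, Slc38a6, Slc38a7, Slc38a9 and Slc38a10. They include the lysosomal arginine sensor Slc38a9, whose region means ran from 5.47 in the frontal cortex to 5.81 in the dorsal raphe (F test adjusted p = 0.0661).

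The treatments moved the transporter genes little. For these tests the 5 complete regions were averaged into 12 units, 2 for each treatment and time. No transporter gene passed in ADX against Sham (0.132% of all probe sets passed), in pADX against Sham (0.00644%) or in ADX against pADX (0.0483%), by limma with Benjamini-Hochberg adjustment over all probe sets. At an unadjusted p under 0.05 there were 6, 2 and 6 of the 49 genes, or 12.2%, 4.08% and 12.2%, beside 9.02%, 7.70% and 8.02% of all probe sets. Of the 33 genes at the floor on at most 1 in 4 of the 60 arrays, 24 differed by 0.1 log2 units or less between ADX and Sham and 26 between pADX and Sham. The log2 differences of the 33 ran from −0.37 to 0.28 in ADX against Sham and from −0.27 to 0.15 in pADX against Sham.

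The genes nearest to a change were carriers of neutral and cationic amino acids. Slc38a2, which cells raise when amino acids are scarce, had unit values of 9.42, 9.15, 9.35 and 9.40 in ADX, and of 9.72, 9.72, 9.42 and 9.51 in Sham. All ADX units were below all Sham units, but the highest ADX and the lowest Sham unit were both at 9.42. The log2 difference was −0.26 (SE 0.08, limma adjusted p = 0.353, 4 of 4 units lower). Slc7a1, the widely expressed arginine transporter CAT-1, had 7.86, 7.80, 7.73 and 7.74 in ADX, 7.82, 7.77, 7.69 and 7.68 in pADX, and 7.95, 7.91, 8.06 and 7.93 in Sham. The ADX and the pADX units all lay below the Sham units, which the 2 comparisons share. The log2 difference from Sham was −0.18 in ADX (limma adjusted p = 0.216) and −0.22 in pADX (SE 0.04, limma adjusted p = 0.322). A second Slc7a1 probe set, above the floor on all arrays, had smaller differences of −0.05 in ADX (adjusted p = 0.83) and −0.15 in pADX (adjusted p = 0.545). Slc38a5, a glutamine and glycine carrier of glia and vessels, had 5.54, 5.67, 5.65 and 5.48 in ADX, 5.40, 5.53, 5.23 and 5.17 in pADX, and 5.26, 5.33, 5.32 and 5.30 in Sham. Its ADX units were all above its Sham units, at a log2 difference of 0.28 (SE 0.07, limma adjusted p = 0.281). Units without overlap in ADX against Sham were thus found for 1 gene above and 2 below (all probe sets, 1.89% and 1.87%), and in pADX against Sham for Slc7a10 above and Slc7a1 below (1.9% and 1.59%).

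Other named differences did not pass either. In ADX against Sham, Slc6a20a differed by −0.35 (limma adjusted p = 0.514), Slc7a11 by 0.20 (0.702) and Slc1a6 by 0.13 (0.707), all on the log2 scale. A second Slc6a20a probe set differed by −0.07 (limma adjusted p = 0.971). In pADX against Sham, Slc7a8 differed by −0.20, Slc1a6 by 0.15, Slc38a3 by 0.11 and Slc7a10 by 0.10, with adjusted p from 0.686 to 0.754. In ADX against pADX, Slc6a20a differed by −0.28, Slc38a2 by −0.21, Slc7a4 by −0.14, Slc38a7 by 0.17, Slc38a5 by 0.25 and Slc7a8 by 0.26, with adjusted p from 0.414 to 0.706.

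2 settings changed these calls. One was a fit of the 60 single arrays in place of the 12 unit means, with region and scaling state as terms and the unit as a random block; which of these changes moved a call was not tested. In it Slc38a2 (log2 difference −0.25, adjusted p = 0.0394) and Slc7a1 (−0.24, adjusted p = 0.0318) were lower in ADX than in Sham, and Slc7a1 was lower in pADX than in Sham (−0.25, adjusted p = 0.0406). With the deposited values, in which the median of all probe sets was −0.21 in ADX against Sham, 22 transporter genes passed. The share of all probe sets that passed in either setting is not given here, so these calls cannot be read as particular to transporters. The summed signal of 3 blood markers moved with ADX against Sham, at medians of 986 (PM) and 834 (AM) in ADX arrays and 2520 (PM) and 3130 (AM) in Sham arrays, and its part in these values was not tested.

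No transporter gene passed in any single region: all 21 comparisons of ADX with Sham, pADX with Sham and PM with AM gave 0 of 49 in limma's test, with 0 to 7 genes at an unadjusted p under 0.05. Few other probe sets passed. In ADX against Sham these were 0.0226% in the septum, 0.0161% in the frontal cortex, 0.0161% in the hypothalamus, 0.0129% in the amygdala, 0.00644% in the dorsal raphe, 0.00322% in the hippocampus and 0% in the locus coeruleus. In pADX against Sham they were 0.0193% in the hippocampus, 0.00322% in the dorsal raphe and 0% elsewhere, and in PM against AM 0.00966% in the dorsal raphe, 0.00322% in the hypothalamus and 0% elsewhere. The lowest adjusted p was 0.201, for Slc6a9 in the septum in ADX against Sham. The ADX difference from Sham did not vary among the 5 regions for any transporter gene in limma's interaction F test (0.184% of all probe sets; 2 genes at an unadjusted p under 0.05; lowest adjusted p = 0.144, Slc7a6).

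**Figure D3:**
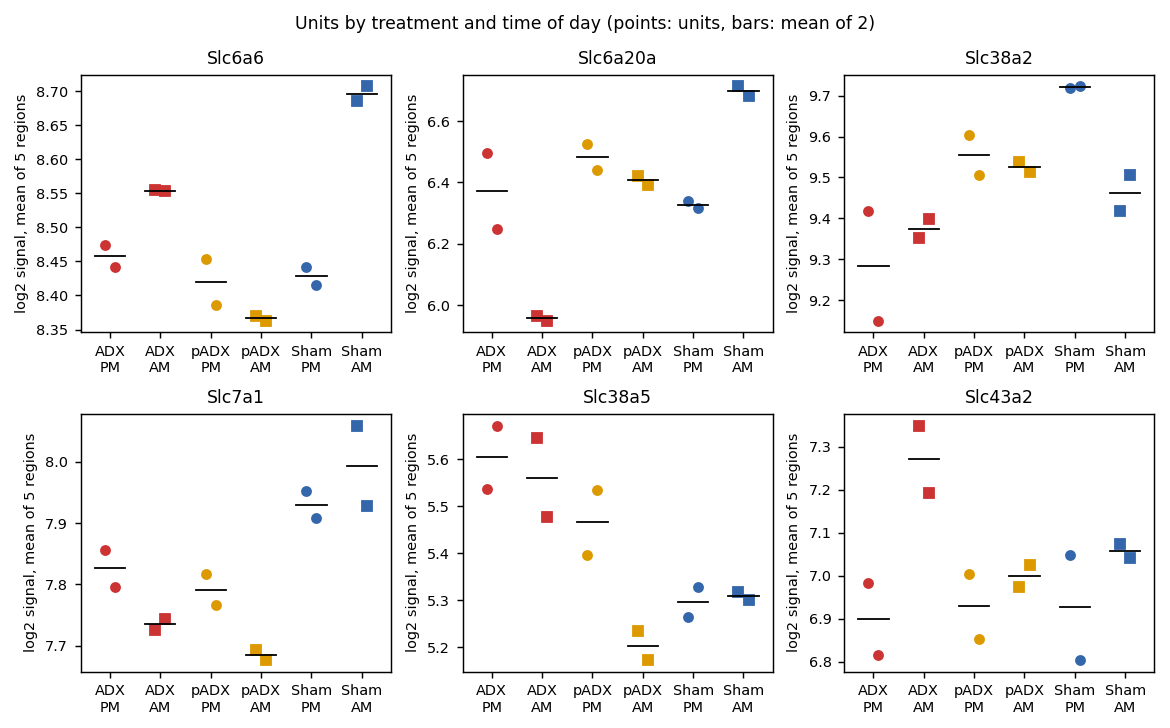
Log2 signal of 6 transporter genes in the 12 units (each the mean of 5 regions), by treatment and time of day. Points are units, circles PM and squares AM, bars are means of 2 units, and the vertical axes differ between genes and do not start at 0. Slc6a6 is lower at PM than at AM in Sham, and Slc7a1 in ADX and in pADX lies below Sham.

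Time of day gave 1 call. PM against AM over all treatments passed for no transporter gene (0.00966% of all probe sets; 4 genes, or 8.16%, at an unadjusted p under 0.05, beside 10.4% of all probe sets). Within ADX (0.029%) and within pADX (0.00966%) none passed either. At an unadjusted p under 0.05 there were 10 genes (20.4%) within ADX, beside 10.5% of all probe sets, and 2 (4.08%) within pADX, beside 6.29%. Within Sham 1 of 49 passed (0.0773% of all probe sets, 0.0419% lower), the taurine transporter gene Slc6a6, whose protein brings taurine into neurons, glia and vessel cells.

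The promoters of Slc6a6 and of 2 carriers described above, Slc7a1 and Slc38a1, are shown because these genes carried the clearest time, treatment and regional differences for which a sequence was matched. They come from RefSeq (GRCr8) and hold 250 bases before and 50 after the listed start, 5′ to 3′, with capitals for TGATGNAA, the C/EBP-ATF response element through which amino acid shortage raises genes.

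Slc6a6, chr4:125752252-125752551 (+ strand): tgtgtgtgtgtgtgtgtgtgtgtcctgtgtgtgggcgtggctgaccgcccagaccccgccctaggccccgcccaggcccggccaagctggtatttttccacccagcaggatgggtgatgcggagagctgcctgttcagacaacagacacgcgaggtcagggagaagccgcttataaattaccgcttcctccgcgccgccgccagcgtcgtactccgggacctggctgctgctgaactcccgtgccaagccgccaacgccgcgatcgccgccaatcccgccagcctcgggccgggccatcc

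Slc7a1, chr12:11664238-11664537 (+ strand): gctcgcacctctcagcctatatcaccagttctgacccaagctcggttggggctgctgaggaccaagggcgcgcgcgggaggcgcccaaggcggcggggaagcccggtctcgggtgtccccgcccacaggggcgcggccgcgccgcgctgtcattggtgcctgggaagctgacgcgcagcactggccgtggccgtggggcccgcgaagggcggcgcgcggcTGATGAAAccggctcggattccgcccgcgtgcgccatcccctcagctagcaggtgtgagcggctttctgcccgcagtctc

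Slc38a1, chr7:129681352-129681651 (- strand): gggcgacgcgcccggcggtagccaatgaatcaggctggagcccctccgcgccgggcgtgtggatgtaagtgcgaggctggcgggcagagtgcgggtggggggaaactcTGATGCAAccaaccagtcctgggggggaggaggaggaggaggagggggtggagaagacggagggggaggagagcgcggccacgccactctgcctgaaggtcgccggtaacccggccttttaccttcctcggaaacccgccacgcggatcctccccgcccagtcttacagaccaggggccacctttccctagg

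4 motifs were searched on both strands, with N for any base: the circadian E-box CACGTG, the D-box TTATGNAA, the palindromic glucocorticoid response element and TGATGNAA, which shares its last 6 letters with the D-box. The Slc6a6 window held none of the 4. The Slc7a1 window held TGATGAAA at position −30 and the Slc38a1 window TGATGCAA at position −142, counted from the start. Of the 49 genes, 39 had a promoter in the table of 33469. TGATGNAA was in 3 of the 39 (3.98% of all promoters), the third being that of Slc1a4. CACGTG was in 7 of the 39 (6.42% of all promoters), those of Slc1a4, Slc1a6, Slc7a5, Slc7a14, Slc36a1, Slc38a7 and Slc43a1. TTATGNAA (3.66% of all promoters) and the glucocorticoid response element (0.439%) were in 0. The transporter promoters had a median of 58.3% G and C, against 51.7% for all.

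Slc6a6 had Sham units of 8.44 and 8.41 at PM, against 8.69 and 8.71 at AM. Both PM units lay below both AM units, as for 16.4% of all probe sets. The log2 difference was −0.27 (SE 0.02, limma adjusted p = 0.0229), which is 1.20-fold lower at PM. In ADX the units were 8.47 and 8.44 at PM and 8.55 and 8.55 at AM, and in pADX 8.45 and 8.39 at PM and 8.37 and 8.36 at AM. The test that the time difference in pADX differed from that in Sham gave a log2 value of 0.32 and a limma adjusted p of 0.0588, so a difference between the treatments was not shown.

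Among the 5 regions averaged, the Sham difference was largest in the brainstem nuclei. In the dorsal raphe Slc6a6 was 8.38 and 8.38 at PM and 8.89 and 8.90 at AM, and in the locus coeruleus 8.30 and 8.30 at PM and 8.79 and 8.72 at AM. In the hypothalamus the values were 8.46 and 8.40 at PM and 8.49 and 8.67 at AM, in the amygdala 8.36 and 8.60 at PM and 8.67 and 8.66 at AM, and in the septum 8.70 and 8.40 at PM and 8.59 and 8.59 at AM. PM and AM arrays did not overlap in the first 4 of these regions, and they overlapped in the septum. The share of all probe sets without overlap in a single region is not given here. In the hippocampus, outside the units, they also overlapped, at 8.25 and 8.11 at PM and 8.59 and 8.10 at AM. In the dorsal raphe the scaling state coincided with the time of day in Sham, and these cannot be told apart there. All 4 Sham arrays of the locus coeruleus were at the common scale. The dorsal raphe also differed in ADX, with 8.37 and 8.29 at PM and 8.86 and 8.80 at AM. None of its ADX arrays was at the common scale, and arrays off that scale need not share another. The part of the scaling in these differences was not tested. In the septum and amygdala alone the difference in Sham was −0.11 (adjusted p = 0.857). The summed signals of astrocyte markers in Sham arrays of the dorsal raphe and locus coeruleus ran from 16900 to 20900 at PM and from 18800 to 20000 at AM, and those of neuron markers from 14400 to 17900 at PM and from 14400 to 18200 at AM. The sum of 3 hippocampus markers did not overlap, at 187 to 239 at PM and 240 to 262 at AM. Single AM arrays were high for 2 cerebellum markers (55.7 to 106 at PM, 44.3 to 1340 at AM) and for 2 noradrenaline neuron markers (263 to 737 at PM, 239 to 1940 at AM). The part of these in the Slc6a6 difference was not tested. The second Slc6a6 probe set had a log2 difference of −0.15 (adjusted p = 0.648). The call was lost with the deposited values (−0.24, adjusted p = 0.335), with each array scaled to a common median (−0.29, 0.0629), with a floor of 8 (−0.27, 0.0712), with dim probe sets left out (−0.27, 0.0567), with the probe sets of the gene averaged (−0.21, 0.235), in the fit of 60 single arrays (−0.23, 0.182), and without either ADX AM unit (−0.27, 0.0801) or either pADX AM unit (−0.27, 0.07).

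**Figure D4:**
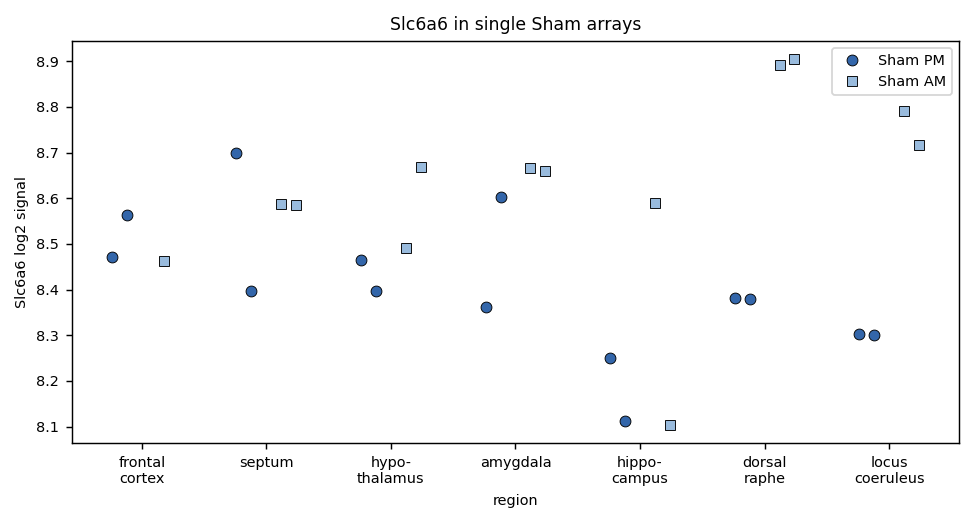
Slc6a6 log2 signal on single Sham arrays of 7 regions, with dark circles for PM on the left of each region and light squares for AM on the right; the vertical axis does not start at 0. In the dorsal raphe and locus coeruleus the PM arrays lie from 8.30 to 8.38 and the AM arrays from 8.72 to 8.90.

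Slc6a20a had the largest difference in its time course between treatments apart from Slc3a1. Its units were 6.50 and 6.25 at PM and 5.96 and 5.95 at AM in ADX, and 6.34 and 6.32 at PM and 6.71 and 6.68 at AM in Sham. PM units were above AM units in ADX and below them in Sham, which held for 18% and 16.4% of all probe sets. The log2 difference was 0.41 in ADX (SE 0.08, limma adjusted p = 0.222) and −0.37 in Sham (SE 0.08, adjusted p = 0.239), and the interaction of 0.78 (SE 0.11) had a limma adjusted p of 0.141 (0.0354% of all probe sets passed, and 7 transporter genes, or 14.3%, had an unadjusted p under 0.05, beside 6.76% of all probe sets). With either ADX PM unit left out the value was 0.66 (without replicate 1, adjusted p = 0.0262) or 0.91 (without replicate 2, adjusted p = 0.00284). In these fits ADX PM is a lone unit that gives no spread of its own and is assumed to vary like the other groups, so they do not replace the result on all units. The hypothalamic arrays described above, where meningeal markers moved with Slc6a20a, enter these means. A second Slc6a20a probe set, above the floor on all arrays, had smaller log2 differences of 0.22 in ADX and −0.21 in Sham. Its interaction was 0.43 (limma adjusted p = 0.791).

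The remaining time differences did not pass. Slc43a2, a carrier of large neutral amino acids, had 6.98 and 6.82 at PM and 7.35 and 7.19 at AM in ADX, a log2 difference of −0.37 (limma adjusted p = 0.328) with both PM units lower (18.3% of all probe sets). In the fit of 60 single arrays described above it passed (−0.37, adjusted p = 0.0347). A second Slc43a2 probe set, above the floor on all arrays, had a smaller log2 difference over the units in ADX, of −0.16 (limma adjusted p = 0.432). Slc38a7, a lysosomal glutamine carrier, differed by −0.30 in ADX (adjusted p = 0.472). The value rested on ADX AM replicate 2: it was −0.08 without that unit (adjusted p = 0.663) and −0.52 without ADX AM replicate 1 (adjusted p = 0.0124), where each fit has a lone ADX AM unit that is assumed to vary like the other groups. Slc1a6 differed by 0.21 over all treatments (adjusted p = 0.326) and was higher at PM in each, by 0.18 in ADX, 0.23 in pADX and 0.23 in Sham. Slc3a2 differed by 0.08 over all treatments (SE 0.02, adjusted p = 0.306). Within pADX, Slc38a6 differed by −0.29, Slc7a7 by −0.20, Slc7a8 by 0.27 and Slc38a5 by 0.26, with adjusted p from 0.672 to 0.848. Within Sham, Slc38a2 differed by 0.26 (adjusted p = 0.417) and Slc6a7 by 0.16 (0.641). For pADX against Sham the interaction with time passed for no transporter gene (0.0451% of all probe sets), and PM against AM did not vary among regions for any (0% of all probe sets; 4 genes at an unadjusted p under 0.05; lowest adjusted p = 0.0933, Slc3a2).

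Slc3a1, the heavy chain of the kidney and gut cystine transporter, fell into separate levels on the 80 arrays with a treatment label. All labelled arrays of the higher level came from Sham AM replicate 1 or pADX PM replicate 1. On 8 of 80 arrays its signal ran from 9.54 to 10.38 and on the other 72 from 7.23 to 8.77. A frontal cortex array without a treatment label was at 9.08, between these levels. Of the 8, 5 were Sham AM replicate 1, in the hypothalamus (10.38), septum (10.09), locus coeruleus (9.96), hippocampus (9.90) and amygdala (9.54), while the sixth array of that replicate, in the dorsal raphe, was at 7.77. The other 3 were pADX PM replicate 1 in the dorsal raphe (10.23), hippocampus (9.96) and amygdala (9.54). The log2 differences of Slc3a1, none of which passed, were −0.37 in ADX against Sham, −0.27 in pADX against Sham, −0.17 in PM against AM and −0.73 in PM against AM within Sham. Without Sham AM replicate 1 they were −0.02, 0.08, 0.07 and −0.07, and the regional F test, which Slc3a1 did not pass with all arrays (adjusted p = 0.101), had an adjusted p of 0.00344.

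**Figure D5:**
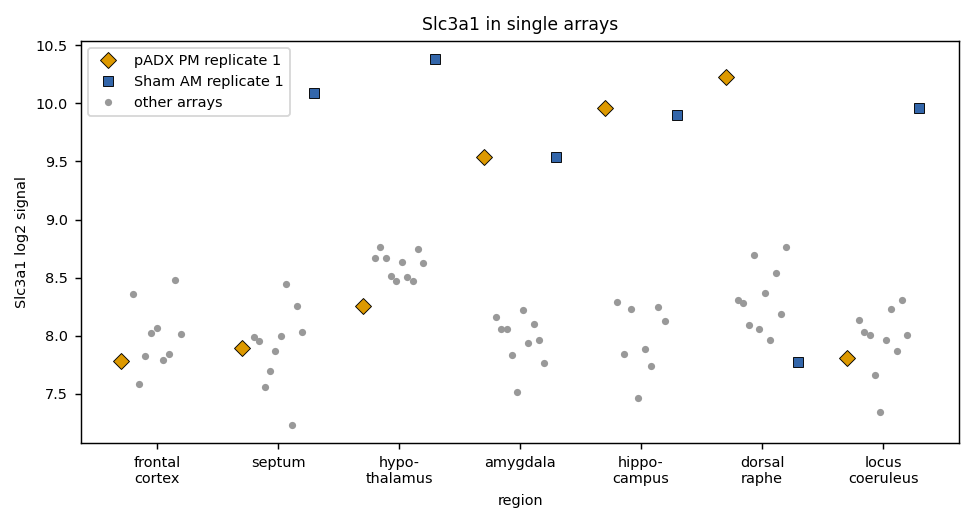
Slc3a1 log2 signal on single arrays of 7 regions, with diamonds for pADX PM replicate 1, squares for Sham AM replicate 1 and grey circles for all other arrays with a treatment label. The vertical axis does not start at 0. The 8 arrays between 9.54 and 10.38 all belong to these 2 replicates, and no other array shown exceeds 8.77. Arrays without a treatment label are not shown, and 1 of them was at 9.08.

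Genes that act beside the transporters were counted in 3 lists. Of 44 amino acid metabolism genes 40 were measured, and 39 of these differed among regions, beside 65.2% of all probe sets and 87% of those mostly above the floor. In ADX against Sham 2 fell, where 0.132% of all probe sets passed in either direction: Prodh, the first enzyme of proline breakdown, by 0.87 on the log2 scale (limma adjusted p = 0.0149), and Glul, glutamine synthetase of astrocytes, by 0.43 (adjusted p = 0.0349). Prodh was also lower in ADX than in pADX (log2 difference −0.79, adjusted p = 0.0307). The median log2 difference of the 40 genes in ADX against Sham was −0.05, against 0 for all probe sets. Of 19 amino acid sensing and stress genes 18 were measured and of 20 amino acid carriers of other families 19, and none of these passed in any comparison of treatment or time, with 3 and 1 at an unadjusted p under 0.05 in ADX against Sham. Among regions 17 of the 18 and 16 of the 19 differed, beside the same 65.2% and 87%.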

How the data were processed

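Total RNA of rat brain was measured on 82 arrays of 31099 probe sets. The authors deposited 1 linear intensity per probe set and array. The sources used here name neither the software nor the scaling. Intensities were quantile normalized over all arrays, raised to a floor of 16 and taken to log2, after which 57 control probe sets were dropped and 31042 tested with limma 3.58.1 (R 4.3.3, lmFit and eBayes with trend, Benjamini-Hochberg over all probe sets, threshold 0.05). Regions were compared over 80 arrays with the 6 combinations of treatment and time in the model. Treatments and times were compared over 12 units, each the mean of 5 regions for 1 treatment, time and replicate letter: treatment and time additively, and time within treatments over 6 means. A replicate is numbered 2 where the title carries the letter b. The method was tested on simulated data. The number of arrays limits the precision.

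Gene symbols came from the platform annotation, where 20826 probe sets had 1 symbol, 436 several and 9780 none; all 49 transporter genes matched RefSeq by gene ID. Named with values are genes that passed across regions, in each comparison the 3 highest and 3 lowest differences among genes at the floor on at most 1 in 4 arrays, and for regions the 12 largest ranges with a region mean above 7 and the 5 highest means. The genes, lists and tests were chosen with earlier results of these data known. Genes named outside this rule were chosen after their values were seen. Replicate letters did not pair the units: over 15 pairs of same-numbered units the correlation of deviations ran from −0.09 to 0.067. Arrays of a group correlated at 0.964 to 0.987, and none were identical. Alternatives covered the normalization, the floor, dim probe sets, probe sets per gene, the regions and arrays used, the scaling state and each replicate in turn.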

Additional observations from a re-analysis of the deposited data

Results flagged for a closer look

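In each of 60 groups of 4 units of a named gene and treatment or time the highest and lowest unit were set against the others. In 3 groups 1 unit stood apart, with a gap to its nearest unit of 0.835 to 0.878 of the range of the group. Such a share can be large where the gap itself is small. Chance would flag about 1 in 20 independent groups, but the groups of different genes share the same units, so the 3 of 60 give no verdict on chance. Slc3a1 was 9.55 in Sham AM replicate 1, with the next Sham unit at 8.29 and the lowest at 8.04, the unit with 5 of the 8 high arrays. Slc43a2 was 6.80 in Sham PM replicate 2, with the other Sham units from 7.04 to 7.07. Slc6a8 was 8.58 in pADX PM replicate 1, with the other pADX units from 8.46 to 8.48.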

How the results depend on the processing

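With the deposited values, which were not normalized between arrays, the number of transporter genes called became 22 in ADX against Sham and 7 in ADX against pADX across regions, 10 in ADX against Sham by region, 1 (Slc38a2), 10 and 7 in ADX against Sham within the hypothalamus, dorsal raphe and locus coeruleus, 30 in the hippocampus against the other regions, and 3 highest or lowest in 1 region (Slc38a1, Slc6a13, Slc7a3). Slc6a6 in Sham was the 1 call of time of day, and the count was 0 with the deposited values, each array at a common median, a floor of 8, dim probe sets left out, probe sets averaged, the septum and amygdala only, these with the hypothalamus, and the fit of 60 single arrays with region and scaling state as terms and the unit as a random block. That last fit called 2 in ADX against Sham (Slc7a1, Slc38a2), 1 in pADX against Sham (Slc7a1) and 1 in PM against AM in ADX (Slc43a2). The shares of all probe sets called in these settings are not given here, so the counts cannot be read as particular to transporters. Highest or lowest in 1 region were 0 without dim probe sets, which dropped Slc6a13, and 2 (Slc6a9, Slc6a11) on arrays at the common scale; the cause was not tested.

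Leaving out each replicate gave 0 to 1 calls for PM against AM in Sham, 0 to 2 in ADX, 0 to 1 in pADX, 0 to 1 for each interaction with treatment (Slc38a7, Slc6a20a and, for pADX, Slc6a6), 0 to 1 for ADX against Sham by region (Slc7a6) and for PM against AM by region (Slc3a2), and 0 to 1 for ADX against Sham within the hypothalamus (Slc7a12) and, for each treatment, within the frontal cortex (Slc36a2). Each such fit has a lone unit or array in 1 group, which is assumed to vary like the other groups. The shares of all probe sets called in these fits are not given here, so the counts cannot be read as particular to transporters. The calls within ADX and within pADX included Slc6a18, Slc7a9 and Slc7a2. These genes and Slc36a2 were at the floor on more than 3 in 4 arrays, and no level can be given for them. Slc6a6 passed the interaction of pADX with time without pADX PM replicate 1 (adjusted p = 0.0135), pADX PM replicate 2 (0.00807) or Sham PM replicate 1 (0.033). Genes that differed among regions stayed between 28 and 32 in number. Signs turned for uncalled differences: with the deposited values Slc7a11 (−0.089) and Slc1a6 (−0.093) in ADX against Sham and Slc7a10 in pADX against Sham (−0.016); in the septum and amygdala Slc7a10 (−0.098), Slc6a20a in ADX against pADX (0.057) and Slc3a2 in PM against AM (−0.045), and with the hypothalamus added Slc7a10 (−0.026) and Slc3a2 (−0.014). Without single replicates Slc3a1 ran from −0.48 to 0.083 in pADX against Sham and from −0.307 to 0.068 in PM against AM.

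With the replicate as a block the counts were 30 among regions and 1 for PM against AM in Sham (Slc6a6, limma adjusted p = 0.0365). They were 0 in the other comparisons across regions. These counts were the same without the block, but the genes that differed among regions were not all the same. Slc3a1 passed the regional F test with the block (adjusted p = 0.0268) and not without it (adjusted p = 0.101). The replicate numbers did not pair the units. Without the 2 hippocampal pADX arrays, an alternative chosen after seeing the data, 30 genes differed among regions.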

Other observations

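The 2 frontal cortex arrays without a treatment label entered no comparison. Of their 98 transporter gene values, 8 lay outside the range of the 10 labelled frontal cortex arrays. Slc3a1 was 9.08 and 7.96, against 7.59 to 8.48 on the labelled arrays. Slc6a20a was 7.02 and 6.99, both below the labelled range of 7.13 to 7.70, and Slc6a6 was 8.62 and 8.38, against 8.15 to 8.56.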
